A study of Mus musculus with 12 samples.

Results

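The genes described here are the integrin and laminin chains of the mouse. They were taken as every gene with a symbol of the form Itga, Itgb, Lama, Lamb or Lamc that was the single symbol of at least 1 probe set of the array. This gave 34 of 18193 genes, 24 integrin chains on 54 probe sets and 10 laminin chains on 19 probe sets. Each gene was represented by its probe set with the highest mean signal. Of the 34 genes, 29 reached a signal of 20 on at least 1 array and were tested among 13650 genes, which left out Itga2, Itgam, Itgax, Itgb6 and Lamc3. A gene could pass through the one group in which it was high, so counts among the 29 describe the genes that passed and not all 34. Itga11 and Itgad had no probe set of their own in the annotation used and were not analysed here.

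RNA of 12 cultures in 7 groups was measured on Affymetrix arrays in a study of neural stem cells induced directly from fibroblasts, by its title. Neurospheres are clusters of neural stem cells and their progenitors that grow in suspension. Those derived from adult fibroblasts were on 2 arrays, replicate 1 with EGF and cAMP and replicate 2 with LIF, a cytokine that acts through STAT3, and those derived from embryonic fibroblasts were on 2 arrays, replicate 3 with LIF and replicate 4 with cAMP in addition. The references were adult skin fibroblasts (1 array), the pluripotent iPS line 38C2 and ES line EB3 (1 array each), primary and secondary neurospheres made from each line (1 array each, 4 in all), and neurospheres of the embryonic day 14 ganglionic eminence (GE), where neurons of the ventral forebrain are born (1 array). The strain was given as C57BL/6 for all cultures other than the ES and iPS cells, and the neurospheres shared a medium named MHM. The primary and secondary neurospheres were made from the ES and iPS lines, so they carry the background of their line. The labels name no transgene, no method of conversion and no separate cultures behind the arrays of a group, and embryonic fibroblasts were not measured. Values are MAS5 signals scaled to the same trimmed mean of 100 on each array, so that only differences of 1 probe set between arrays are read. Differences were taken between values of log2(signal + 5), a scale that compresses changes of dim genes. They stand with their standard error (SE), and a gene was called where its 2-sided limma p, adjusted by Benjamini-Hochberg across the 13650 genes, fell under 0.05.

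Laminins are cross-shaped proteins of 1 α, 1 β and 1 γ chain that assemble into the sheet of basement membranes. The α chain carries the sites that integrins bind. Integrins are cell surface receptors of 1 α and 1 β chain. The β1 chain pairs with many α chains, β4 only with α6, and the αv chain with β1, β3, β5, β6 or β8. α3β1, α6β1, α6β4 and α7β1 bind laminins, α5β1 and α8β1 bind proteins with the RGD motif such as fibronectin and nephronectin, and αvβ8 binds and activates latent TGF-β. Laminins with α3 and β3 chains and their receptor α6β4 anchor epithelia through hemidesmosomes. Neural stem cells of the forebrain are known for α6β1 and for αvβ8.

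The windows of 250 bases before the start site are shown for 4 of the chains that had a searched entry. Itgb8 was high in neural neurospheres, Lama5 and Itga3 in fibroblast-derived ones, and Itgb5 in fibroblasts and secondary neurospheres. The windows are RefSeq entries, shown 5′ to 3′ on the strand of the gene. Capitals mark GC boxes (GGGCGG or its reverse CCGCCC), E-boxes (CANNTG) and CCAAT boxes (CCAAT or its reverse ATTGG).
Itgb8 (GRCm38.p6, chr12:119238277-119238526, minus strand): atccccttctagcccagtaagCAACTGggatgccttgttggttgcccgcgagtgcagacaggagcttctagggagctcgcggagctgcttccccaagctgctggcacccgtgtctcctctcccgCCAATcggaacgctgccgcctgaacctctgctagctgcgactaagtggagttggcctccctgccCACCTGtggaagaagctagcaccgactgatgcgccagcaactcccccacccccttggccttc
Lama5 (GRCm38.p6, chr2:180225860-180226109, minus strand): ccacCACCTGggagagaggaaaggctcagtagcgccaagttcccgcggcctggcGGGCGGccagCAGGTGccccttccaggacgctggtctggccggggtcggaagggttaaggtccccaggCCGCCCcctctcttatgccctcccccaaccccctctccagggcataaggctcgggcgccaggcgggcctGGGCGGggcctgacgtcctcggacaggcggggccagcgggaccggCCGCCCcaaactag
Itga3 (GRCm38.p6, chr11:95076715-95076964, minus strand): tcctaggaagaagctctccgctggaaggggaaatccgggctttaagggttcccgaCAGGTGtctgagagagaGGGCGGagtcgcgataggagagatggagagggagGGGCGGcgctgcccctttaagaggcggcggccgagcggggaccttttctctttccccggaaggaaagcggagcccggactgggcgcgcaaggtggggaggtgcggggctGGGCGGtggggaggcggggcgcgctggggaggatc
Itgb5 (GRCm38.p6, chr16:33829415-33829664, plus strand): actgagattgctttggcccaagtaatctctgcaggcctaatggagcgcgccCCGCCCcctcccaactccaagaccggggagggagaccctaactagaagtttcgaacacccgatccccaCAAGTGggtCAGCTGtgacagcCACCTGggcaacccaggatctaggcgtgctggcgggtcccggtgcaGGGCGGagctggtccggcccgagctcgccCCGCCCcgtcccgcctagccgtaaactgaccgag
The Lama5 window held 4 GC boxes and the Itga3 window 3, and a second Itga3 entry held 1. The Itgb5 window held 3 GC boxes and 3 E-boxes. The Itgb8 window held no GC box, but 2 E-boxes and a CCAAT box that begins 126 bases before the start. Of the 34 genes, 22 had an entry that was searched, in 25 windows, and Itgb4, Lama3 and Lama4 were not among them. Entries on 1 chromosome were left out for the 34 genes but kept in the wider set below. A GC box was found in 9 of the 25 windows (8 genes) and an E-box in 20 (17 genes). A CCAAT box was found in 4 windows (4 genes), the AP-1 motif TGANTCA in 1 and the TATA box TATAAA or its reverse TTTATA in 0. Over 32851 windows of the same length the shares were 32.7% for the GC box, 66.2% for the E-box, 33.8% for the CCAAT box, 6.75% for AP-1 and 12.4% for the TATA box. These matches describe letters and no binding was measured.

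The cultures were set against marker genes of the labelled cell types, as sums of signals. Summed over 8 neural stem cell markers, the signal was 17433 in the GE neurospheres, 9158 to 13429 in the primary and secondary neurospheres, 856 to 2394 in the fibroblast-derived neurospheres and 140 in the fibroblasts. In iPS and ES cells it was 3515 and 3542, of which Sox2, a gene that neural stem cells share with pluripotent cells, made up 3353 and 3418. Of the 8 markers, 4 were called higher in the fibroblast-derived neurospheres than in pluripotent cells and 2 lower, where 20.4% and 9.77% of all genes were. Fabp7, a lipid carrier of radial glia, was 48.1 to 518 on the fibroblast-derived arrays and 16.9 and 1.2 in iPS and ES cells. Other markers ran the other way. Slc1a3 was 15.0 to 31.7 on the fibroblast-derived arrays against 62.9 and 56.5 in iPS and ES cells. Pax6 was 8.7 to 31.6 against 34.0 and 50.1, and Sox2 85.6 to 2092 against 3353 and 3418. Summed over 8 pluripotency markers the fibroblast-derived neurospheres stood at 2794 to 12551, against 20762 and 22046 in iPS and ES cells and 23.6 in the fibroblasts. On the ES-derived primary neurospheres this sum was 9057, and on the iPS-derived ones 251.0. The sum of 10 fibroblast markers was 32374 in the fibroblasts, 726 to 5002 in the fibroblast-derived neurospheres and 8121 in the ES-derived secondary neurospheres, against 1135 in the iPS-derived ones. In such bulk RNA, fewer cells of a type and less RNA per cell cannot be told apart.

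Most of the tested chains differed between the groups, the integrins (70%) at a share near that of all genes. Over the 7 groups, 23 of the 29 tested chains were called (limma F-test), 14 of 20 integrins and 9 of 9 laminins, where 61.6% of all genes tested were called. The integrin chains not called were Itga1, Itga2b, Itga9, Itgae, Itgal and Itgb2. The smallest adjusted p among the chains was that of Itgb8 (9.9e-05), followed by Itgb4 (0.000121) and Lama3 (0.000135).

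**Figure D1:**
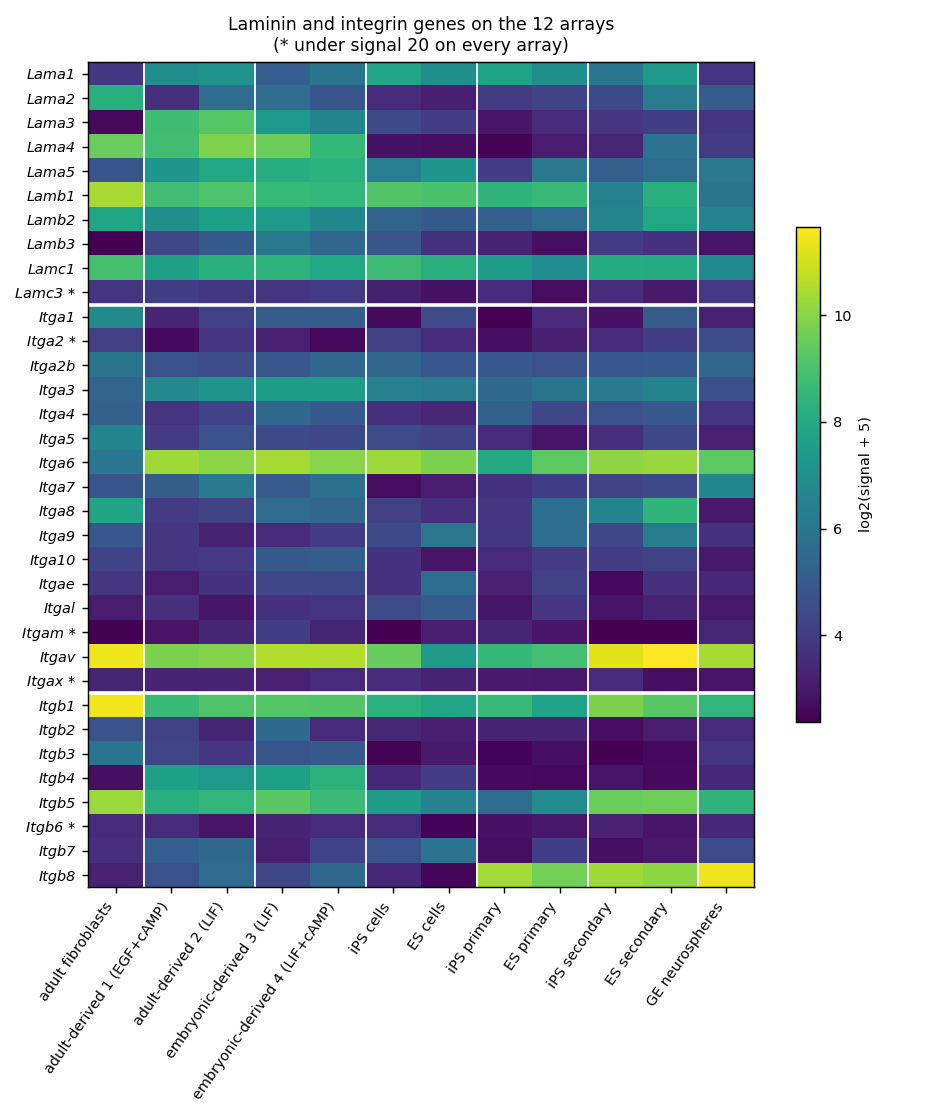
Signal of the 34 chains (rows; laminins, integrin α chains and integrin β chains) on the 12 arrays (columns, grouped by condition, white lines between groups), as log2(signal + 5), each row to be read along itself; a star marks the 5 chains under a signal of 20 on every array. Itgb4 and Lama3 are bright on the 4 fibroblast-derived arrays, and Itgb8 on the primary, secondary and GE neurospheres.

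Of the chains of the hemidesmosomal system, Lama3 and Itgb4 were higher in the fibroblast-derived neurospheres than in each of the 4 references. Both passed the filter only through the fibroblast-derived arrays, so the group called higher also set their entry into the test. Lamb3 was called higher against all but the pluripotent cells, and Itga6 against the fibroblasts alone. Lama3, the α chain of hemidesmosomal laminin, had a signal of 434, 592, 153 and 89.0 on replicates 1 to 4. It was 1.0 in the fibroblasts, 17.1 and 11.6 in iPS and ES cells, 2.6 to 11.9 in the primary and secondary neurospheres and 9.4 in GE neurospheres. The lowest fibroblast-derived array was thus above every other array. A second probe set of Lama3, too dim to pass the filter, did not show this, with 1.6 to 5.4 on the fibroblast-derived arrays and 1.7 to 5.8 elsewhere. The log2 difference was 5.38 ± 0.43 (SE) against the fibroblasts (adjusted p = 0.000406), 3.71 ± 0.34 against pluripotent cells (0.000307), 4.0 ± 0.34 against secondary neurospheres (0.000117) and 4.12 ± 0.43 against GE neurospheres (0.000445). Lamb3, the β chain of the same laminin, had a signal of 15.5, 27.0, 63.4 and 38.2 on replicates 1 to 4. It was thus higher in the embryonic-derived pair, where Lama3 was lower. It was 0.3 in the fibroblasts and 2.4 in GE neurospheres, and its difference was 2.82 ± 0.53 (adjusted p = 0.00758) and 2.33 ± 0.53 (0.0122). The iPS cells, at 23.0, lay within the fibroblast-derived range, and the difference from pluripotent cells, 0.95 ± 0.41, was not called (0.113).

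Itgb4, the β chain of the hemidesmosomal receptor, had signals of 190, 154, 189 and 322 on replicates 1 to 4. All 8 other arrays lay between 1.0 and 11.8, the highest being the ES cells, so the groups did not overlap. Its difference was 4.95 ± 0.43 (SE) against the fibroblasts (adjusted p = 0.000518), 3.97 ± 0.33 against pluripotent cells (0.000242), 4.97 ± 0.33 against secondary neurospheres (5.49e-05) and 4.31 ± 0.43 against GE neurospheres (0.000361). Itga6, its only known partner and, with β1, a laminin receptor of many stem cells, was not so restricted. It stood at 1022 to 1337 on the fibroblast-derived arrays, 1243 and 891 in iPS and ES cells, 1102 and 1190 in secondary neurospheres and 635 in GE neurospheres. The fibroblasts, at 60.2, were the lowest array, and the difference from them was 4.16 ± 0.43 (0.00093). No other comparison of the fibroblast-derived neurospheres called Itga6.

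Itga3, whose α3β1 receptor binds the α3 and α5 laminins, was, with Lama3 and Itgb4, one of the chains called higher against all 4 references. Its signals were 102, 141, 172 and 177 on replicates 1 to 4, against 37.5 in the fibroblasts and 19.9 in GE neurospheres. Pluripotent cells (79.9 and 72.2) and secondary neurospheres (66.8 and 87.0) lay between. The difference was 1.82 ± 0.32 (SE) from the fibroblasts (adjusted p = 0.00589) and 2.59 ± 0.32 from GE neurospheres (0.00083). From pluripotent cells and secondary neurospheres it was 0.89 ± 0.25 (0.0274) and 0.88 ± 0.25 (0.026). The call against pluripotent cells was lost under quantile normalization (0.57, 0.105) and a common median (0.50, 0.14). Both of these calls were lost on leaving out any of 5 arrays each, with an adjusted p of 0.116 without the ES cells and 0.179 without the iPS-derived secondary neurospheres.

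Some, but not all, keratinocyte markers were high on the same arrays. The sum of 7 keratinocyte markers was 1188 to 1391 on the fibroblast-derived arrays, 83.8 in the fibroblasts and 20 to 498 elsewhere, and most of it was Perp, a desmosomal protein (1026 to 1218). The keratin Krt5 was 14.1 and 21.7 on replicates 1 and 2, below the 25 of the fibroblasts, and 52.2 and 40.3 on replicates 3 and 4. Col17a1, the collagen of hemidesmosomes, was 0.4 and 1.5 on replicates 1 and 2, where Lama3 was highest, 36.9 and 28.9 on replicates 3 and 4, and 6.5 in the fibroblasts. Krt14 stood at 10.1 to 57.2 on the fibroblast-derived arrays, and Krt15 at no more than 2.1 on any array. Of the 6 keratinocyte markers tested, 3 were called higher than in the fibroblasts, where 15% of all genes were, and all 6 than in the secondary neurospheres, where 17% were. The sum of 7 trophoblast markers was 1769 and 945 on replicates 3 and 4 and 55.9 and 134 on replicates 1 and 2, where Lama3 was higher. The part of these cell types in the results was not tested.

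Lama4, an α chain of vessel and mesenchymal basement membranes, was high in fibroblasts and fibroblast-derived neurospheres. Its signal was 441, 927, 753 and 374 on replicates 1 to 4 and 729 in the fibroblasts, which lay inside that range (difference -0.32, adjusted p = 0.821). It was 2.1 and 1.8 in pluripotent cells, 0.6 and 3.7 in primary neurospheres, 5.3 and 55.6 in the iPS- and ES-derived secondary neurospheres and 11.2 in GE neurospheres. The difference was 6.40 ± 0.66 (SE) from pluripotent cells (0.000481), 4.56 ± 0.66 from secondary neurospheres (0.0014) and 5.18 ± 0.85 from GE neurospheres (0.00317). The ES-derived secondary neurospheres, the highest of the neural arrays for Lama4, were also the highest of them for fibroblast markers. The part of fibroblast-like cells was not tested.

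Lama5, the α chain of most epithelial and embryonic basement membranes, had a signal of 147, 234, 277 and 313 on replicates 1 to 4, the embryonic-derived pair being the higher. The fibroblasts stood at 24.1, the secondary neurospheres at 31.3 and 44.9, the GE neurospheres at 61.5 and the iPS and ES cells at 78.3 and 146. All fibroblast-derived arrays were above all others, the ES cells by the least. Lama5 rose by 3.04 ± 0.67 (SE) against the fibroblasts (adjusted p = 0.0141) and was 2.49 ± 0.52 higher than in secondary neurospheres (0.00767). The differences of 1.85 ± 0.67 from GE neurospheres (0.071) and 1.09 from pluripotent cells were not called. With the line as a replicate block, both were called, at adjusted p = 0.0154 and 0.0402.

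Lama1, the α chain of the first embryonic laminin, was highest in iPS cells (227) and iPS-derived primary neurospheres (214), stood at 117, 138, 30.4 and 56.9 on fibroblast-derived replicates 1 to 4, and was 9.7 in the fibroblasts and 8.6 in GE neurospheres. It rose by 2.42 ± 0.59 (SE) against the fibroblasts (adjusted p = 0.0197) and was 2.53 ± 0.59 higher than in GE neurospheres (0.0133). Lama2, the α chain of muscle and peripheral nerve, ran the other way, with 304 in the fibroblasts and 7.8 to 47.3 on the fibroblast-derived arrays, a difference of -3.28 ± 0.84 (0.0243).

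Lamb1, a β chain of many laminins, was highest in the fibroblasts (1382), stood at 362 to 542 on the fibroblast-derived arrays and at 561 and 498 in iPS and ES cells, and was lowest in GE neurospheres (57.2) and iPS-derived secondary neurospheres (83.4). It fell by 1.69 ± 0.52 (SE) against the fibroblasts (adjusted p = 0.0465), a call kept under only 9 of 22 alternatives (0.00438 to 0.0988) and lost with quantile normalization. It was 2.79 ± 0.52 higher than in GE neurospheres (0.00532). Lamc1, the γ chain of most laminins, lay between 107 (GE neurospheres) and 477 (fibroblasts), with the fibroblast-derived arrays at 197 to 323. It was 1.24 ± 0.36 above GE neurospheres (0.0319). Lamb2, the β chain of synapse and kidney laminins, was 101 to 192 on the fibroblast-derived arrays, inside the range of fibroblasts (229) and secondary neurospheres (92.9 and 238), and above the pluripotent cells (36.7 and 27.1) by 1.98 ± 0.40 (0.00813). Lamc3, of neural and nerve laminins, stayed between 1.4 and 12.1 on all arrays.

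**Figure D2:**
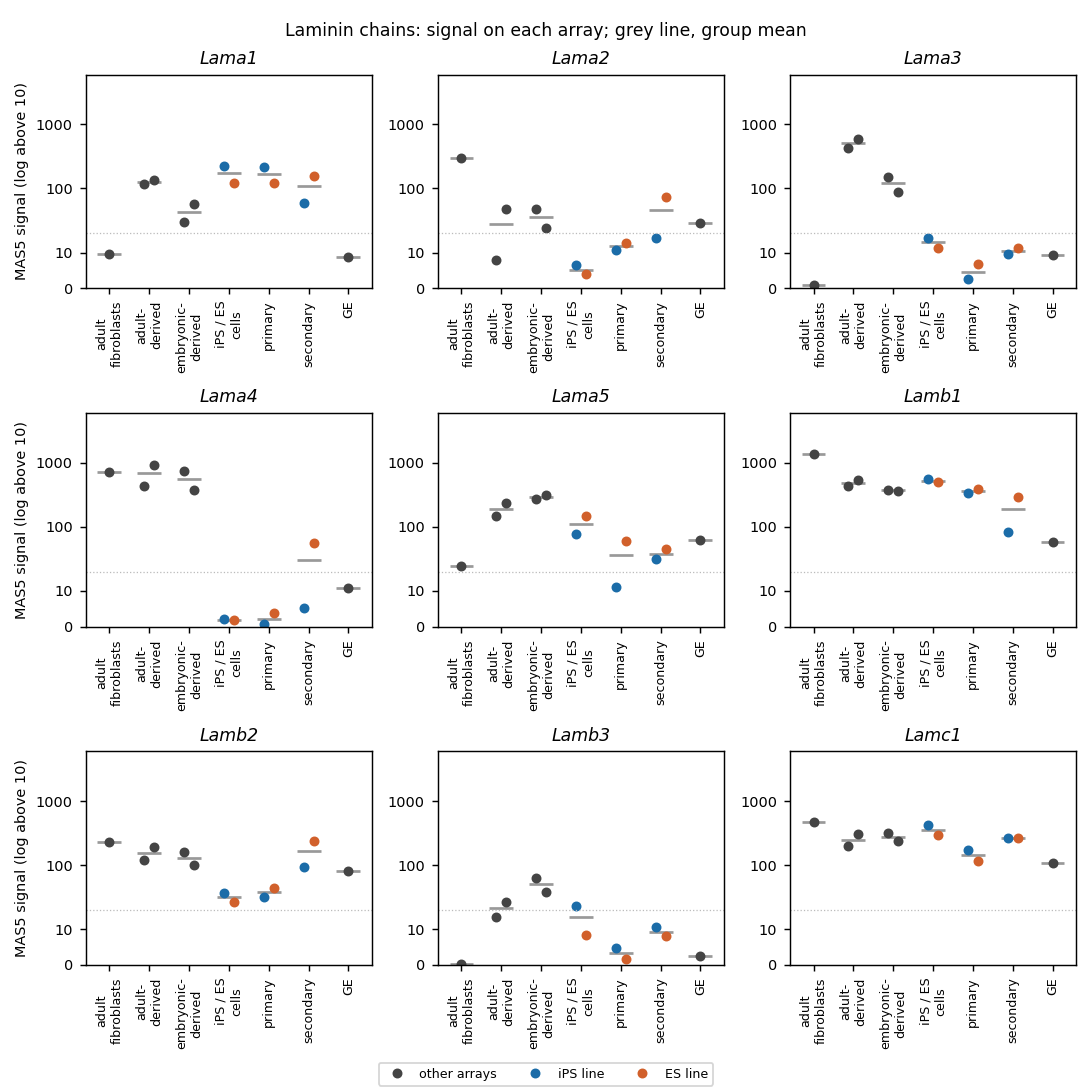
MAS5 signal of 9 laminin chains on each array, by group, on an axis that is linear up to 10 and logarithmic above; points are single arrays (blue, iPS line; orange, ES line; grey, others), the short grey line is the group mean and the dotted line the signal of 20. Lama3 sits at 89.0 to 592 on the fibroblast-derived arrays and at 17.1 or less elsewhere, and Lama4 at 374 to 927 on these and the fibroblast array and at 55.6 or less elsewhere.

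Itgb8, the β chain that with αv activates TGF-β in the developing forebrain, marked the neural cultures. Its signal was 2716 in GE neurospheres, 1316 and 805 in iPS- and ES-derived primary neurospheres and 1285 and 1071 in secondary ones. The fibroblast-derived arrays stood at 21.4, 44.5, 15.6 and 41.1 (replicates 1 to 4), the pluripotent cells at 5.6 and 0.8, and the fibroblasts at 4.4. The neural arrays and all others did not overlap. The log2 difference of the fibroblast-derived from the GE neurospheres was -6.35 ± 0.56 (SE, adjusted p = 0.000272), and from the secondary ones -5.14 ± 0.43 (0.000117). Itgb8 was higher than in pluripotent cells by 2.09 ± 0.43 (0.0091) and than in the fibroblasts by 1.83 ± 0.56 (0.0458). The last call was lost under 12 of 22 alternatives, and its difference under a common median was 1.56 (0.0859).

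The partners αv and β5 were highest in the fibroblasts and the secondary neurospheres. Itgav had a signal of 2718 in the fibroblasts, 2431 and 3211 in iPS- and ES-derived secondary neurospheres, 1374 in GE neurospheres, 898, 969, 1544 and 1520 on fibroblast-derived replicates 1 to 4, and 165 to 715 in pluripotent cells and primary neurospheres. Itgb5, a receptor chain for vitronectin with αv, was 1220 in the fibroblasts, 726 and 767 in secondary neurospheres, 296 to 609 on the fibroblast-derived arrays and 46.0 to 174 in pluripotent cells and primary neurospheres. Against the fibroblasts Itgb5 fell by 1.59 ± 0.49 (SE, adjusted p = 0.047), while Itgav at -1.18 ± 0.60 was not called (0.188). The fall of Itgb5 was kept under 13 of 22 alternatives (0.0109 to 0.105) and lost without any one fibroblast-derived array. Against pluripotent cells both were higher, Itgav by 1.78 ± 0.47 (0.0215) and Itgb5 by 1.69 ± 0.38 (0.0123). Without the ES cells these differences were 0.74 (0.0545) and 1.19 (0.0973). Itgb3, the β chain of platelet and osteoclast integrins, stayed low at 9.4 to 26.3 on the fibroblast-derived arrays, below the fibroblasts (57.5) and above pluripotent cells and secondary neurospheres (0.4 to 3.2).

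Itgb1, the shared β chain, was 2776 in the fibroblasts and 403, 537, 570 and 558 on fibroblast-derived replicates 1 to 4. The other arrays lay between 214 (ES-derived primary neurospheres) and 910 (iPS-derived secondary neurospheres). It fell by 2.43 ± 0.37 (SE) against the fibroblasts (adjusted p = 0.00346). It was 0.95 ± 0.28 above pluripotent cells (0.0351), a call that its 3 other probe sets that passed did not make (adjusted p 0.0702 to 0.892). Itga5, the fibronectin receptor chain of fibroblasts, stood at 88.4 in the fibroblasts and 10.8 to 20.5 on the fibroblast-derived arrays, a difference of -2.17 ± 0.46 (0.0118). On its other 2 probe sets that passed, both dim, the differences of -1.26 and -1.09 were not called (0.0994 and 0.0809).

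Itga8, the nephronectin receptor chain of mesenchyme and smooth muscle, had 218 in the fibroblasts, 89.8 and 343 in iPS- and ES-derived secondary neurospheres, 10.7, 13.3, 44.6 and 38.4 on fibroblast-derived replicates 1 to 4 and 3.1 in GE neurospheres. It fell by 2.99 ± 0.79 (SE) against the fibroblasts (adjusted p = 0.0274) and was lower than in secondary neurospheres (-2.70 ± 0.61, 0.011). Without the ES-derived secondary neurospheres, the latter difference was -1.76 (0.104). Itga7, a laminin receptor chain of muscle and glia, was highest in GE neurospheres (99.8), then 27.9 to 69.1 on the fibroblast-derived arrays, and 1.4 and 3.5 in pluripotent cells. Its difference was 2.66 ± 0.39 from pluripotent cells (0.00209) and 1.19 ± 0.39 from secondary neurospheres (0.0435).

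The leukocyte and platelet chains were dim. Itgam and Itgax never passed 12, Itgal 27.6 (ES cells), Itgb2 42.0, Itgae 45.9 (ES cells) and Itga2b 56.0 (fibroblasts). Itgb2 and Itgam both had their highest signal, 42.0 and 12, on embryonic-derived replicate 3. On that array the sum of 12 macrophage and blood markers was 2334, of which Lyz2 was 1434, against 304 to 565 on the other fibroblast-derived arrays. The part of such cells was not tested. In the fibroblast-derived neurospheres Itgal was called lower than in pluripotent cells (-1.25 ± 0.38 SE, adjusted p = 0.0387) and Itgb7 higher than in secondary neurospheres (1.62 ± 0.52, 0.0407). Signals of Itgb7 reached 30.2 and 40.7 in the adult-derived pair but only 3.9 and 14 in the embryonic-derived pair. Secondary neurospheres had 1.8 and 3.1, close to embryonic-derived replicate 3. The Itgb7 call survived leaving out 7 of 12 arrays and was lost with a pseudocount of 20 (0.82, limma adjusted p = 0.0525). The collagen receptor chain Itga10 was 27.5 and 29.9 in embryonic-derived neurospheres and 9.3 and 10.3 in adult-derived ones, and Itga4, a chain for VCAM-1 and fibronectin, 37.9 and 26.2 against 8.7 and 14.1. Itga10 passed the filter only through the embryonic-derived pair. The call of Itga4 against pluripotent cells was kept under 9 of 22 alternatives, and not with quantile normalization or a common median. Itga1, a collagen receptor chain, was highest in the fibroblasts (108) and 5.1 to 30.0 on the fibroblast-derived arrays, a difference that was not called (-2.40 ± 0.93, 0.0967). With the line as a replicate block it was called (-2.40 ± 0.46, 0.0084). Itga9 was highest in the ES line (46.6 to 74.6), and stood at 9.8 to 17.1 in the iPS line and 4.5 to 10.8 on the fibroblast-derived arrays. None of its comparisons was called, but with the block it was lower than in the fibroblasts (-1.27 ± 0.40, 0.0464), pluripotent cells (-1.63 ± 0.31, 0.00629) and secondary neurospheres (-1.70 ± 0.31, 0.00417). The block takes the gap between the lines out of the spread, so these p-values do not measure that gap.

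**Figure D3:**
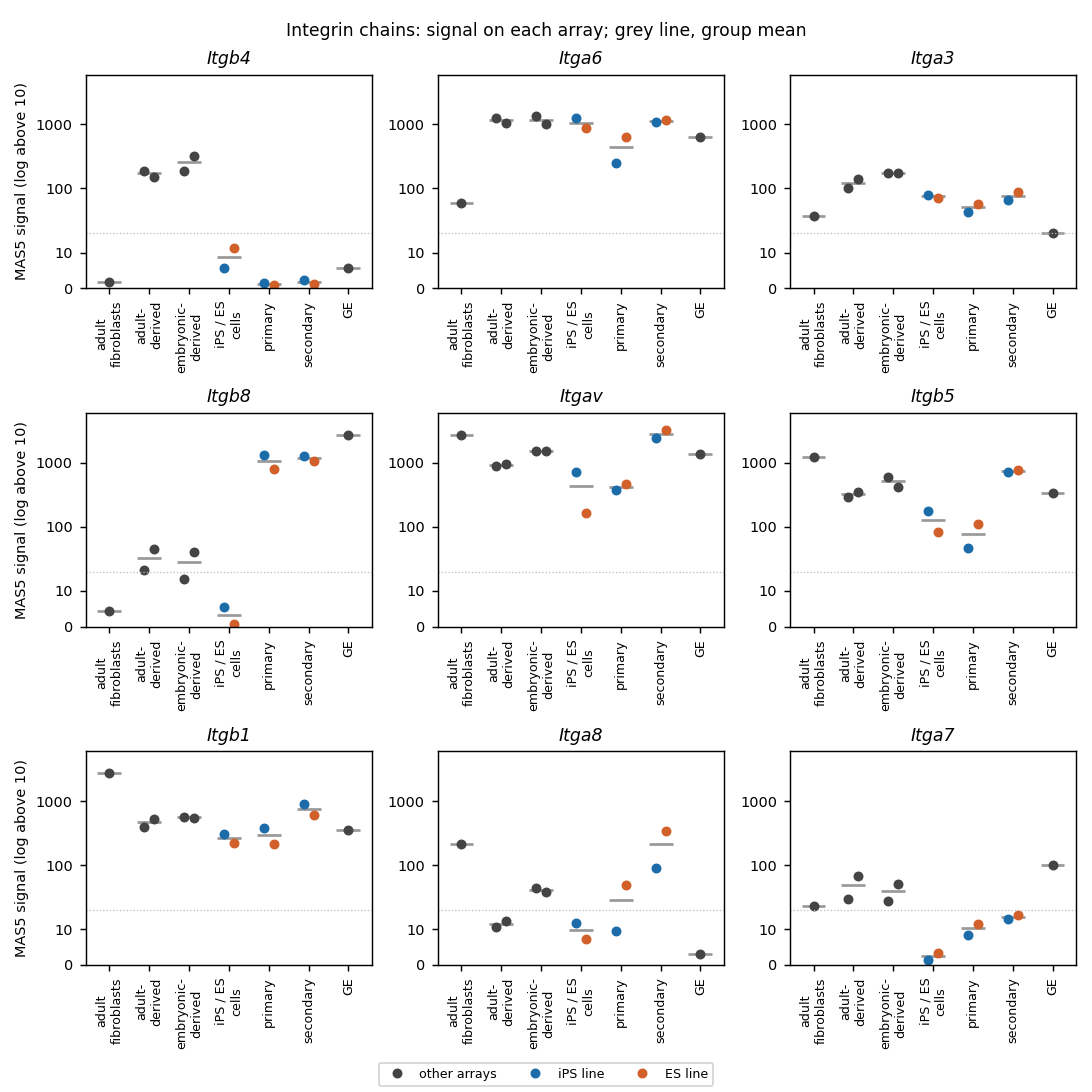
MAS5 signal of 9 integrin chains on each array, with the same axes, colours and lines as for the laminin chains. Itgb4 lies at 154 to 322 on the fibroblast-derived arrays and at 11.8 or less elsewhere, while Itgb8 lies at 805 to 2716 on the primary, secondary and GE neurospheres and at 44.5 or less elsewhere.

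Set out by comparison, the fibroblast-derived neurospheres differed from each reference in both directions, and all 4 comparisons share the same 4 arrays. Against the adult fibroblasts 8 of the 29 tested chains were higher, where 15% of all genes were: Itga3, Itga6, Itgb4, Itgb8, Lama1, Lama3, Lama5 and Lamb3. The 7 lower ones, where 8.21% of all genes were lower, were Itga5, Itga8, Itgb1, Itgb3, Itgb5, Lama2 and Lamb1. The median of the chains was -0.55 against 0.22 over all genes. With the adult-derived pair alone the calls of Itgb8 (1.94, adjusted p = 0.0564) and Lamb1 (-1.49, 0.0988) were lost. Without embryonic-derived replicate 4, 8 chains were called in place of 15. The 8 calls that no left-out array ended were Itga3, Itga5, Itga6, Itgb1, Itgb4, Lama3, Lama5 and Lamb3.

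Against the GE neurospheres 9 chains were higher, where 15.6% of all genes were, and 6 of the 9 were laminins: Lama1, Lama3, Lama4, Lamb1, Lamb3 and Lamc1, with Itga3, Itga10 and Itgb4. Itgb8 was the 1 lower chain, where 12.8% of all genes were lower. The median of the 9 laminins was 2.33 and of the 20 integrins 0.59, against 0.07 over all genes. With the adult-derived pair alone the calls of Itga10 (0.89, adjusted p = 0.205), Lamb3 (1.79, 0.0548) and Lamc1 (1.16, 0.0647) were lost. No left-out array ended the calls other than those of Itga10 and Lamc1, each lost without adult-derived replicate 2 (adjusted p = 0.0586 and 0.0653) and without embryonic-derived replicate 3 (0.0622 and 0.0787). The call of Itga10 was also lost without replicates 1 and 4 (0.0504 and 0.0698).

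Against the pluripotent cells 13 chains were higher, where 20.4% of all genes were: Itga3, Itga4, Itga7, Itga10, Itgav, Itgb1, Itgb3, Itgb4, Itgb5, Itgb8, Lama3, Lama4 and Lamb2. Itgal was the 1 lower chain, where 9.77% of all genes were. With quantile normalization 11 chains were higher and 2 lower, and with a common median 10 and 2, Lama1 being the second lower chain in both. With the line as a replicate block, Itga9 was also lower and Lama5 also higher. With the adult-derived pair alone the calls of Itga3 (0.63), Itga4 (0.49), Itga10 (0.59), Itgav (1.42), Itgb1 (0.81) and Itgb5 (1.38) were lost (adjusted p 0.0546 to 0.416). Without the ES cells 5 chains were called, all higher, and with the adult-derived pair alone 8. Without adult-derived replicate 2, or embryonic-derived replicate 3 or 4, the counts were 8, 8 and 9. The calls of Itga7, Itgb3, Itgb4, Lama3 and Lama4 were kept whichever array was left out.

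Against the secondary neurospheres 10 chains were higher, where 17% of all genes were: Itga3, Itga7, Itgb3, Itgb4, Itgb7, Lama3, Lama4, Lama5, Lamb1 and Lamb3. Itga8 and Itgb8 were lower, where 16.7% of all genes were. With quantile normalization Itgav was lower as well, and with the block Itga9 and Itgb1 (-0.53 ± 0.17, 0.0401). With the adult-derived pair alone the calls of Itga3 (0.62, adjusted p = 0.149), Itga7 (1.31, 0.0643) and Lamb3 (0.84, 0.231) were lost. Without the iPS-derived or the ES-derived secondary neurospheres 6 and 7 chains were called, and 7 without adult-derived replicate 2. Itgb3, Itgb4, Itgb8, Lama3 and Lama4 were called whichever array was left out.

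**Figure D4:**
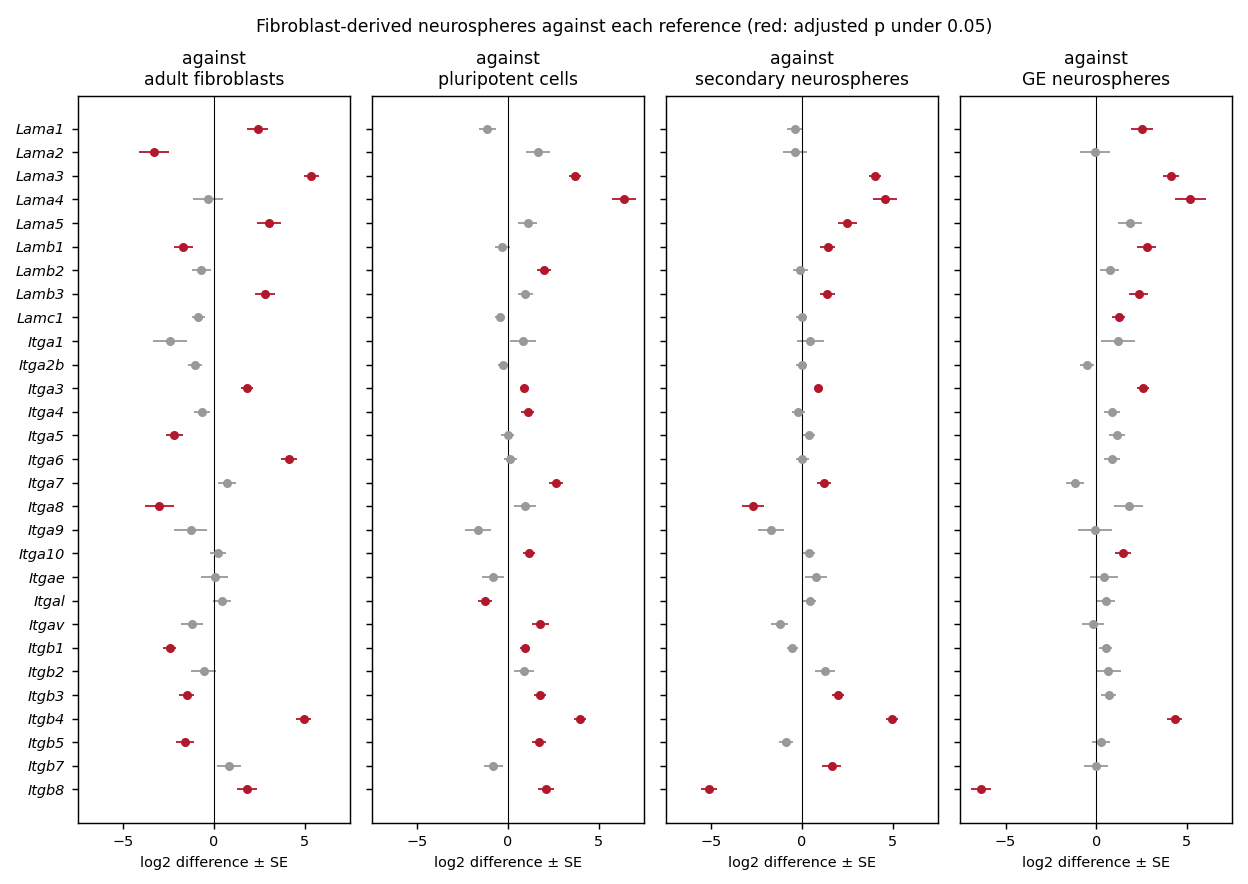
Difference between the fibroblast-derived neurospheres (4 arrays) and each of 4 references on the log2(signal + 5) scale for the 29 tested chains, points with SE bars; red points had an adjusted p under 0.05 and grey ones did not. Itgb4 and Lama3 lie at 3.71 to 5.38 in all 4 panels, and Itgb8 lies at -6.35 against GE and -5.14 against secondary neurospheres but at 1.83 and 2.09 in the other panels.

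The step from pluripotent cells to primary neurospheres was led by Itgb8, which rose from 5.6 to 1316 in the iPS line and from 0.8 to 805 in the ES line. Its difference was 7.04 ± 0.50 (SE, adjusted p = 0.000148). Itga4 was the other chain of the 2 that were higher, where 19.3% of all genes were (1.29 ± 0.41, 0.0426). The 4 lower chains, where 10.8% of all genes were lower, were Itga6, Itgal, Itgb7 and Lamc1. Itga6 went from 1243 to 253 in the iPS line and from 891 to 637 in the ES line, a difference of -1.38 ± 0.39 (0.0295), and Lamc1 from 424 to 177 and from 294 to 115, a difference of -1.28 ± 0.32 (0.0192). With all arrays scaled to a common median 1 chain was higher and 9 were lower, Itga5, Itgb4, Lama3, Lama5 and Lamb3 in addition, and with quantile normalization 1 and 8. The call of Itga4 was lost under both. With the line as a replicate block Lama5 (-1.76 ± 0.40, 0.0121) and Lamb3 (-1.25 ± 0.41, 0.0453) were lower as well. Only the call of Itgb8 was kept whichever array was left out. The counts fell to 2 without the iPS-derived primary neurospheres, 3 without the ES cells and 3 without either secondary array.

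From primary to secondary neurospheres, 2 chains rose, where 1.99% of all genes did, and they are partners. Itgav went from 371 to 2431 in the iPS line and from 468 to 3211 in the ES line (2.73 ± 0.54 SE, adjusted p = 0.0394), and Itgb5 from 46.0 to 726 and from 110 to 767 (3.30 ± 0.44, 0.0129). In both lines the secondary array was far above the primary one. The sum of the 10 fibroblast markers was also higher on it, at 1135 against 257 in the iPS line and 8121 against 1035 in the ES line, with a list median difference of 2.03 against -0.01 over all genes and 0 of the 10 called. The part of fibroblast-like cells in the rise of both chains, which were high in fibroblasts, was not tested. No chain fell, where 0.791% of all genes did. With the line as a replicate block, 4 chains were called, these and Itga8 (2.70 ± 0.56, 0.0405) and Itgb1 (1.35 ± 0.20, 0.016). Lamb1 fell by 1.96 in the iPS line and by 0.41 in the ES line and was not called (0.198). Without the ES-derived secondary neurospheres neither call was kept (Itgav 0.248 and Itgb5 0.0949) and 1 chain was called lower, and the call of Itgav was lost without any of the other primary, secondary or fibroblast-derived arrays (0.0624 to 0.104).

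Secondary and GE neurospheres, both neural, differed in 3 chains that were higher in the secondary ones, where 2.4% of all genes were, and in no lower chain, where 1.49% were. These were Itga8 (4.49 ± 0.87 SE, adjusted p = 0.0292), Lama1 (2.92 ± 0.64, 0.0446) and Itga3 (1.71 ± 0.35, 0.0367). Lama1 stood at 59.9 and 159 in the secondary and 8.6 in GE neurospheres. On 1 of the other 2 probe sets of Itga3 the difference was 0.01. With a common median 2 chains were higher (not Itga3) and Itga7 was lower, and with quantile normalization 3 and 1. With the line as a replicate block 5 chains were called, with Itgb1 higher (1.05 ± 0.24, 0.0475) and Itga7 lower (-2.36 ± 0.54, 0.0472). None of the 3 calls was kept without the ES-derived secondary neurospheres (Itga8 0.0874, Lama1 0.14 and Itga3 0.135) or without any one fibroblast-derived array (0.0513 to 0.0856).

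**Figure D5:**
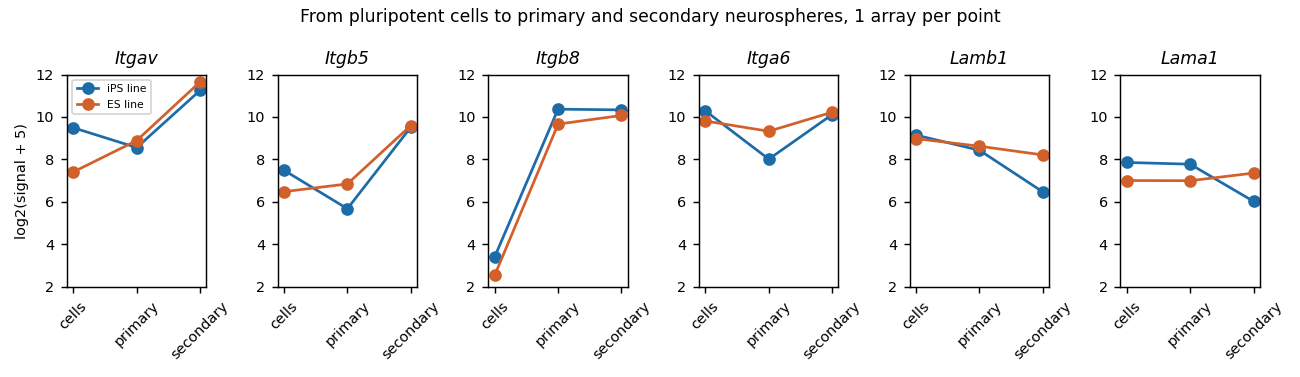
log2(signal + 5) of 6 chains in pluripotent cells, primary and secondary neurospheres of the iPS line (blue) and the ES line (orange), 1 array per point. Itgb8 rises by 6.96 and 7.13 at the first step, Itgav by 2.70 and 2.76 and Itgb5 by 3.84 and 2.75 at the second, while Lama1 falls by 1.75 in the iPS line and rises by 0.36 in the ES line at the second.

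No chain was called between adult-derived and embryonic-derived neurospheres: 0 were higher, where 0.0659% of all genes were, and 0 lower, where 0.403% were (limma). At an unadjusted p under 0.05 there were 6. The smallest was that of Lama3, 513 on average in the adult-derived and 121 in the embryonic-derived pair (2.07 ± 0.39 SE, adjusted p = 0.0755). With a pseudocount of 20, 1 chain was called. Lama1 (1.49 ± 0.52, adjusted p = 0.323) and Itgb7 (1.62 ± 0.60, 0.346) were also higher on both adult-derived arrays than on both embryonic-derived ones, and Itga4, Itga10 and Lamb3 ran the other way (-1.18, -1.19 and -1.09). The media of the pairs overlap only in part: adult-derived replicate 2 and embryonic-derived replicate 3 both had LIF, and Lama3 was 592 and 153 on these. Between the means of the pairs, origin and medium cannot be told apart.

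The partners of these chains were counted from 3 lists. Of 17 tested genes of the basement membrane (nidogens, collagen IV, perlecan, agrin and others), 1 rose and 2 fell against the fibroblasts, where 15% and 8.21% of all genes did. Than in GE neurospheres 5 were higher and 2 lower, where 15.6% and 12.8% of all genes were, and than in secondary neurospheres 0 and 3, where 17% and 16.7% were. Agrn, agrin, a heparan sulphate proteoglycan that binds laminin, was 71.4 in the fibroblasts and 337 to 555 on the fibroblast-derived arrays (2.56 ± 0.25 SE, adjusted p = 0.000821). On these arrays Agrn was called lower than in secondary neurospheres (-1.35 ± 0.20, 0.00138) and GE neurospheres (-0.81 ± 0.25). Its difference from pluripotent cells, 0.03 ± 0.20, was not called. Ntn4, netrin-4, which binds laminin γ chains and loosens the sheet, was 6.8 and 1.9 in iPS and ES cells and 167 to 370 on the fibroblast-derived arrays (4.89 ± 0.27, 4.35e-05). It also rose from pluripotent cells to primary (4.0 ± 0.31, 0.000215) and from primary to secondary neurospheres (1.91 ± 0.31, 0.0222). Smoc1, a calcium-binding matrix protein, was 925 in GE neurospheres and 18.9 to 21.4 on the fibroblast-derived arrays (-5.21 ± 0.68, 0.00103).

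Of 21 tested ligands of integrins other than laminins, 1 rose and 8 fell against the fibroblasts, with a list median of -1.75 against 0.22 over all genes, and 6 were higher and 2 lower than in GE neurospheres. The shares over all genes were 15% and 8.21%, and 15.6% and 12.8%. Thbs2, thrombospondin 2, was 4554 in the fibroblasts and 64.1 to 228 on the fibroblast-derived arrays (-5.07 ± 0.86 SE, adjusted p = 0.00516). Against pluripotent cells (3.76 ± 0.67, 0.00483) and GE neurospheres (4.09 ± 0.86) Thbs2 was called higher. Vtn, vitronectin, the ligand of αvβ5, was 184 to 530 in primary and secondary neurospheres and no more than 23.1 on any other array. Edil3, a ligand with an RGD motif, was 4.0 and 0.2 in iPS and ES cells and 137 and 134 in their primary neurospheres (4.36 ± 0.43, 0.000417). Of 29 tested genes of the adhesion machinery inside the cell, 12 fell and 0 rose against the fibroblasts, where 8.21% and 15% of all genes did. Than in pluripotent cells 7 were higher and 1 lower, where 20.4% and 9.77% of all genes were. Than in GE neurospheres 3 were higher and 4 lower, near the 15.6% and 12.8% of all genes, and than in secondary neurospheres 6 and 4, where 17% and 16.7% of all genes were. Fermt2, kindlin-2, an activator of integrins, was 1829 in the fibroblasts, 723 to 1303 on the fibroblast-derived arrays and 2239 in GE neurospheres. Lims2, an adaptor of the integrin-linked kinase, was 621 in GE neurospheres and 1.6 to 21.2 on the fibroblast-derived arrays (-5.62 ± 0.56, 0.000373). Cd151, the tetraspanin that pairs with α3β1 and α6 integrins, was 1918 in the fibroblasts and 769 to 975 on the fibroblast-derived arrays, a difference of -1.10 ± 0.21 (0.00863). Against pluripotent cells (1.18 ± 0.17, 0.00181) and secondary neurospheres (0.54 ± 0.17, 0.0364) Cd151 was called higher.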

How the data were processed

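Total RNA of 12 mouse cultures, extracted with Trizol per the labels, was measured on arrays with 45101 probe sets. Per the submitters' processing notes, the authors used Affymetrix Expression Console 1.1 and MAS5, and each deposited value is a linear signal intensity. Their 2%-trimmed mean was 100 on each array, and 40.5% to 49.1% of the probe sets reached 20. The number of arrays limits the precision.

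Probe sets were named through GEO's platform annotation (34945 with 1 symbol). Values were taken as log2(signal + 5). Genes with a signal of 20 or more on at least 1 array, by their brightest probe set, entered 1 limma 3.58.1 fit in R 4.3.3 (lmFit, eBayes with trend; 12 arrays, 7 groups, 5 residual and 3.63 prior degrees of freedom). Both pairs of fibroblast-derived neurospheres had equal weight in their mean, and a group of 1 array was assumed to vary like the others. P-values rest on the spread within pairs of arrays, and no pair was like for like. The pluripotent, primary and secondary pairs each set the iPS line against the ES line. Each fibroblast-derived pair had unlike additions to its medium. The spread therefore includes effects of line or medium, and its technical part cannot be told apart. The steps were tested on simulated data.

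The members, the partner and marker lists and the tests were chosen with earlier results of these data known. Any member could be named, and of each partner list the 3 with the smallest adjusted p over groups. The same number marks the same iPS or ES line, which pairs those arrays: deviations from group means correlated at 0.252, 0.0578 and 0.425. Alternatives were other normalizations, pseudocounts, filters, probe sets, variance models, arrays in the fit, the adult-derived pair alone, the line as a block and leaving out each array. Promoter windows are from RefSeq on GRCm38.p6.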

Additional observations from a re-analysis of the deposited data

Results flagged for a closer look

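Itgal, an integrin chain of leukocytes, had 1 array far from the rest among the 4 fibroblast-derived arrays. The signal was 2.7 on adult-derived replicate 2 and 7.7, 8.1 and 8.7 on the others, and on the log2(signal + 5) scale the gap took up 0.868 of the range, above Dixon's critical value for 4 arrays. Each of the 29 tested chains was screened in this way, and only Itgal was flagged. Chance flags about 1 in 20 such groups, so 1 flag among 29 is within what chance gives, and all these signals are dim.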

How the results depend on the processing

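No called chain changed direction under any alternative run. Quantile normalization left the total of called chains within 1.5 times in each comparison, but gave 1 higher and 8 lower in place of 2 and 4 for primary against pluripotent. Primary against pluripotent: 10 chains under a common median, 3 with a filter at 100 and 1 with only the groups compared, in place of 6. The common median moved the median of all genes to -0.118 there, from 0.22 to -0.20 against the fibroblasts, from 0.16 to -0.18 against pluripotent cells and from -0.01 to -0.31 for secondary against primary. Secondary against primary: 1 with a pseudocount of 1, 1 without the intensity trend, 4 with the line as a replicate block and 0 with only the groups compared, in place of 2. Secondary against GE: 5 with the block and 0 with only the groups compared, in place of 3. The block ended no call, but it takes the gap between the iPS and the ES line out of the spread. Adult- against embryonic-derived: 1 with a pseudocount of 20. Against pluripotent cells: 9 with a filter at 100 and 8 with the adult-derived pair alone, in place of 14. Leaving out single arrays gave 20 to 24 called chains over all groups, 8 to 15 against the fibroblasts, 8 to 12 against GE, 5 to 15 against pluripotent cells, 6 to 13 against secondary, 2 to 7 for primary against pluripotent, 1 to 3 for secondary against primary, 0 to 3 for secondary against GE and 0 for adult- against embryonic-derived. The cause was not tested, beyond the fewer genes or arrays some of these settings use. On the called chains' other probe sets that passed the filter, 30 calls were kept and 17 kept only the direction. Probe sets that did not pass were not counted. Dim chains, under a signal of about 20, are limited by noise.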
